A study of Mus musculus with 65 samples.

Results

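Of the 29632 transcribed regulatory sites measured in murine erythroleukemia (MEL) cells, 1189 (4.01%) were chosen by their own measured signal: it was lower within 1 h of removing the corepressor Mtg16. A site was a member when its mean over 3 libraries treated with the degrader for 1 h, plus 1, was at or below a log2 ratio of -0.7 to the mean of 3 DMSO libraries, plus 1, and when the DMSO mean was at least 20. All 6 libraries belonged to the A485 series described below. Of the 16380 sites with such a DMSO mean, called eligible sites here, the members were 7.26%, and 1762 eligible sites passed the mirror-image limit of 0.7 upward. In all, 14 members lay in the window from 21 to 24 Mb of chromosome 13, which holds the major cluster of replication-dependent histone genes, and they are described apart from the 1175 other members. Sites at histone genes elsewhere in the genome were not set apart from the 1175.

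Mtg16, the product of the gene Cbfa2t3, is a scaffold protein that bridges DNA-binding factors of blood cells, such as those of the GATA and E-box complexes, to histone deacetylases, and it is best known as a repressor. Loss of a repressor would be looked for first at sites that gain signal, and the members are the sites that moved the other way. PRO-seq labels the RNA that engaged polymerases are making at the moment of collection, so it reads transcription itself and not stable RNA. The dREG method finds promoters and enhancers in such data from the paired, divergent transcription that starts at active elements. Replication-dependent histone genes supply the core histones for newly copied DNA and are transcribed mainly while cells replicate their DNA.

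Every library came from MEL cells, a line of virus-transformed mouse red-cell precursors, carrying Mtg16-FKBP-2XHA, in which Mtg16 bears a degradation (FKBP) tag and an HA epitope; the DMSO controls carried it too. The degrader was 250 nM dTAGV1, which sends FKBP-tagged proteins to the proteasome. The 65 libraries fell into 4 experiments with separately normalized tables. In the time course, cells received DMSO, or degrader for 15 min, 30 min, 1 h or 2 h, or had 2 h of degrader washed out for 30 min, 1 h or 2 h; each group had 3 libraries, except 2 at 2 h of degrader and 2 at 1 h of washout. In the A485 series they received DMSO, degrader, 10 µM A485 (which blocks the acetyltransferases CBP and p300) or both agents, for 15 min, 30 min or 1 h, with 3 libraries per group except 2 for A485 and for both at 30 min. The LBH589 series held DMSO and 30 min or 1 h of 5 nM LBH589 (panobinostat, which blocks histone deacetylases), 3 libraries each. In the LBH589 washout series, 2 h of degrader was followed by washout for 30 min or 1 h, 3 libraries each; when LBH589 was given is not stated in the labels. The labels do not say whether libraries of a group were separate cultures, so p-values measure the spread between these libraries, which may be technical.

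Between 857558 and 7625202 reads fell in the sites of a library of the A485 series, with 1969884 to 6959404 for the time course, 2769517 to 4633612 under LBH589 and 1493605 to 3505967 in its washout. The erythroid markers Gata1 (2669 to 6587 normalized counts over the time-course libraries) and Tal1 (3535 to 7568) were transcribed throughout. The globin gene Hbb-bt, of the same marker list, read 15.6 to 72.2, within or below the range of the liver marker Apoa1 (29.4 to 91.7). In the time course, the 5 libraries of degrader 1 h and 2 h are named for the degrader, but A485 stands in their title and treatment, so they are called the libraries labelled degrader. Transcription of Cbfa2t3 itself told the 2 agents apart in the A485 series, at 11270 ± 957 normalized counts (SD, n = 3) in DMSO, 50990 ± 1651 after 1 h of degrader and 662 ± 212 after 1 h of A485. In the time course it went from 28760, 23510 and 19180 in DMSO to 156700, 159400 and 153600 in the libraries labelled degrader 1 h (log2 difference 2.74, SE 0.31, limma adjusted p = 4.29e-05). These libraries were thus above DMSO, as with the degrader in the other experiment. A further 3 libraries of the time course did not sit with their groups and are said to stand apart: deviations of degrader 15 min replicate 2, degrader 30 min replicate 3 and washout 30 min replicate 3 from the experiment's mean correlated at -0.23, -0.32 and -0.36 with those of the other libraries of the group. The histone-window members' share of all site signal was 0.0836% in degrader 30 min replicate 3 and 0.255% and 0.272% in its replicates 1 and 2. In washout 30 min replicate 3 it was 0.272%, and 0.0825% and 0.120% in its replicates 1 and 2. By this share each replicate 3 was nearer the other's group. Both were kept as labelled, and whether they were exchanged was not tested. Counts that rest on the libraries that stand apart are given with and without them. In bulk libraries, fewer cells that use a site and less transcription per cell cannot be told apart.

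The values that chose the members are a description, with no test. The 1175 members outside the histone window had a median DMSO mean of 50.5 normalized counts, from 20.02 to 19700, and 580 of them lay between 20 and 50. Their median log2 ratio was -0.88, with quartiles of -1.04 and -0.77, and 347 were at -1 or less and 8 at -2 or less. In 1090 of them every degrader library of the rule was below every DMSO library. These libraries chose the sites, which favours such a count, and the same count over all sites was not made. Their median width was 510 bp, against 790 bp for all eligible sites and 560 bp for all sites. They were spread over the genome: by chromosome they made up between 5.40% (chromosome 19) and 9.17% (X) of the eligible sites. Another member within 10 kb was found for 196 of them (16.7%). Sites are given in mm39 coordinates, the mouse build in the submitters' processing notes, and since no mm39 annotation was used here the gene, exon or intron at a site is not given.

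At the edge of the rule, chr4:86762401-86762660, chr14:111507901-111508160 and chr7:43001331-43001850 fell just inside the limit at -0.70 each. Just outside it, also at -0.70 when rounded, were chr10:79996041-79996660, chr1:74308911-74309330 and chr8:106608511-106608800. Read in the time course at 1 h, the inside sites differed from DMSO by -0.35, -0.62 and 0.05 and the outside sites by -0.60, -0.42 and -0.22.

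**Figure D1:**
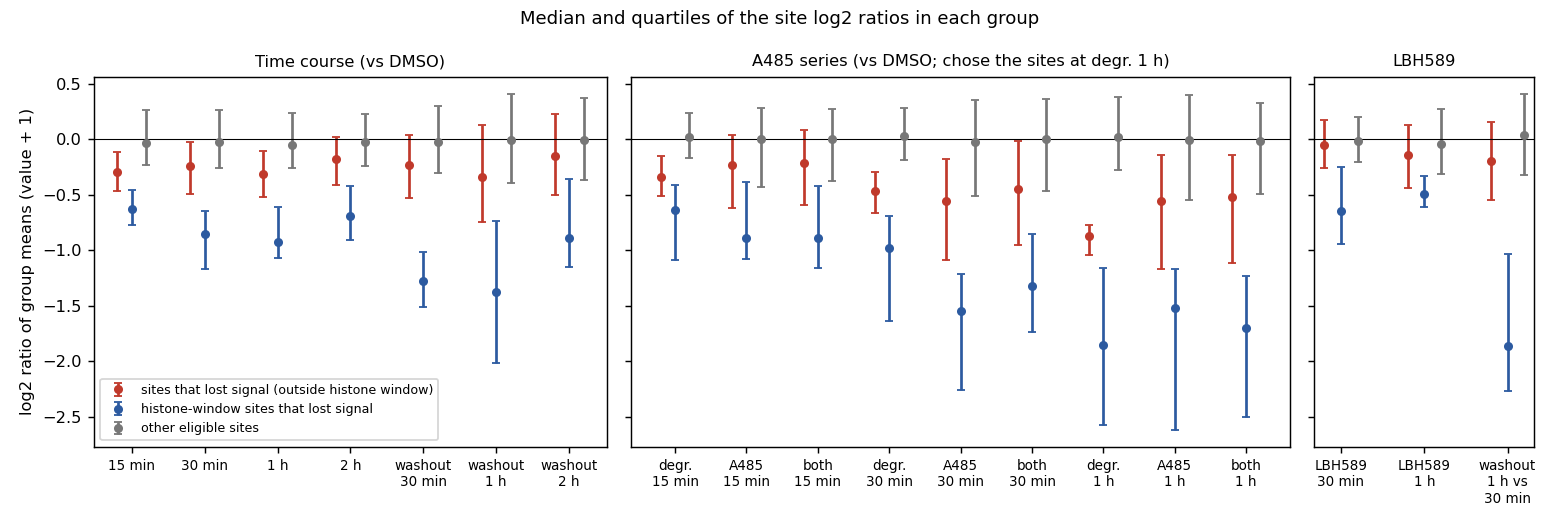
Median (points) and quartiles (bars) over sites of the log2 ratio of each group's mean to its reference group's mean, after adding 1, for the 1175 members outside the histone window, the 14 histone-window members and the eligible sites that are no members, in each experiment. Degrader 1 h in the A485 series is the contrast that chose the members (median -0.88); the members also sat below 0 in the independent time course (-0.31 at 1 h), while the other eligible sites stayed near 0.

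The time course used none of the libraries of the rule and asks whether the fall was seen again. It was, at a smaller size: 1168 of the 1175 members were in its table, all of them passed the filter on low values, and their median log2 difference at 1 h was -0.31 (quartiles -0.52 and -0.10), with 974 (83.4%) below 0. The median over the eligible sites that are no members was -0.05, with 55.8% of them below 0. By limma with Benjamini-Hochberg adjustment over all sites, 137 members (11.7%) fell and 3 rose, against 3.07% lower and 12.3% higher over all sites tested. In 435 members (37.2%) all 3 degrader libraries were below all 3 DMSO libraries, against 16.2% of all sites. A fall of at least the size the rule asked for, -0.7 or less, was measured in 145 members (12.4%), against 3.40% of all sites tested. The count of 137 dropped to 61 without DMSO replicate 3, to 55 without degrader 1 h replicate 1 and to 91 without replicate 2, and rose to 308 lower, all 137 among them, and 8 higher without the 3 libraries that stand apart. Over all sites, 8.29% were then lower and 15.9% higher.

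The fall was present at the earliest time. At 15 min, 89 members fell and 10 rose (median -0.32), against 2.16% lower and 11.7% higher over all sites, and at 30 min 135 fell and 9 rose (median -0.26), against 4% lower and 12% higher. At 2 h, 50 fell and 7 rose (median -0.17), against 1.58% and 8.92%. The median at 2 h lay between -0.26 and -0.081 over the alternatives run. Without the 3 libraries that stand apart, 299 members (25.6%) were lower and 20 higher at 15 min, against 8.92% and 15.2% of all sites in the same fit. The numbers were 148 (12.7%) and 11 at 30 min, against 4.87% and 13%, and 124 (10.6%) and 15 at 2 h, against 4.74% and 12.7%. Single DMSO or degrader libraries moved these counts too: at 15 min 44 fell without DMSO replicate 2, 46 without DMSO replicate 3 and 34 without degrader replicate 1. At 30 min, 69 fell without DMSO replicate 3 and 75 without degrader replicate 3. At 2 h, 29 fell without DMSO replicate 3, 17 without degrader replicate 1 and 25 without degrader replicate 2. The share of members called rose with their level: at 1 h 6.81% fell among those with a DMSO mean of 20 to 50 and 29.8% among those at 500 or more, while the median difference was -0.30 in both. The same shares by level were not made for other sites, so whether members exceed other sites of their level was not tested.

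**Figure D2:**
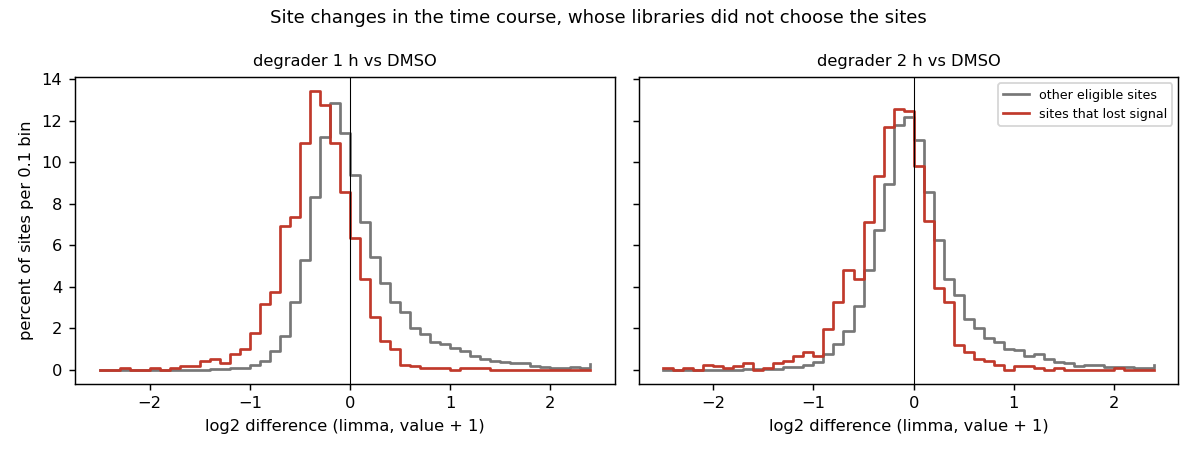
Distribution of the limma log2 differences from DMSO in the time course (x axis, on the log2(value + 1) scale), as percent of sites per bin of 0.1 (y axis), for the members outside the histone window and the eligible sites that are no members. At 1 h the members' curve is shifted to the left of 0 (median -0.31) and the curve of the other eligible sites is centred near it (median -0.05).

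The 12 members with the largest falls in the time course, among those called at 1 h without overlap, spanned log2 differences from -2.27 to -1.39. The largest was at chr15:37071961-37072160, which also had the largest fall of the rule outside the histone window (-2.53). It read 29.9, 23.8 and 32.8 normalized counts in DMSO, 16.1, 15.2 and 15.5 at 15 min and 0.984, 6.98 and 13.6 at 1 h (-2.27, SE 0.55, limma adjusted p = 0.00424). All libraries at 15 min and 1 h were below all DMSO libraries, and the 1 h libraries differed widely among themselves at these low counts.

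A pair of the 12 are near neighbours on chromosome 2. The site chr2:177160141-177160460 went from 43.0, 58.5 and 74.6 in DMSO to 8.852, 13.96 and 22.71 at 1 h (-1.94, SE 0.37, adjusted p = 0.000404), and chr2:177175351-177176050 differed by -1.68. At chr3:93606791-93607400 the DMSO libraries read 52.3, 72.2 and 73.1, those at 15 min 19.5, 28.5 and 37.6 and those at 1 h 16.7, 21.8 and 16.9 (-1.77, SE 0.24, adjusted p = 6.66e-06). At 15 min, against the same DMSO libraries, the difference was -1.21 (adjusted p = 0.000849).

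Among the 12, sites on chromosomes 1 and 3 had the deepest coverage. At chr1:21413821-21415010 the counts were 140, 134 and 265 in DMSO, 137, 112 and 122 at 15 min, 71.2, 72.0 and 39.0 at 30 min and 59.0, 56.7 and 68.1 at 1 h (-1.47, SE 0.24, adjusted p = 7.82e-05). The libraries at 15 min overlapped DMSO and those from 30 min on did not. At chr3:87316571-87317340 the DMSO libraries read 1741, 2008 and 2495 and those at 1 h 745, 754 and 861 (-1.39, SE 0.41, adjusted p = 0.0218), again without overlap. The other 7 sites, chr2:73630831-73631440, chr6:86756391-86756970, chr7:45563351-45563840, chr19:5871461-5872320, chr3:13000161-13000360, chr12:110985761-110986260 and the chromosome 2 neighbour above, lay between -1.68 and -1.41.

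**Figure D3:**
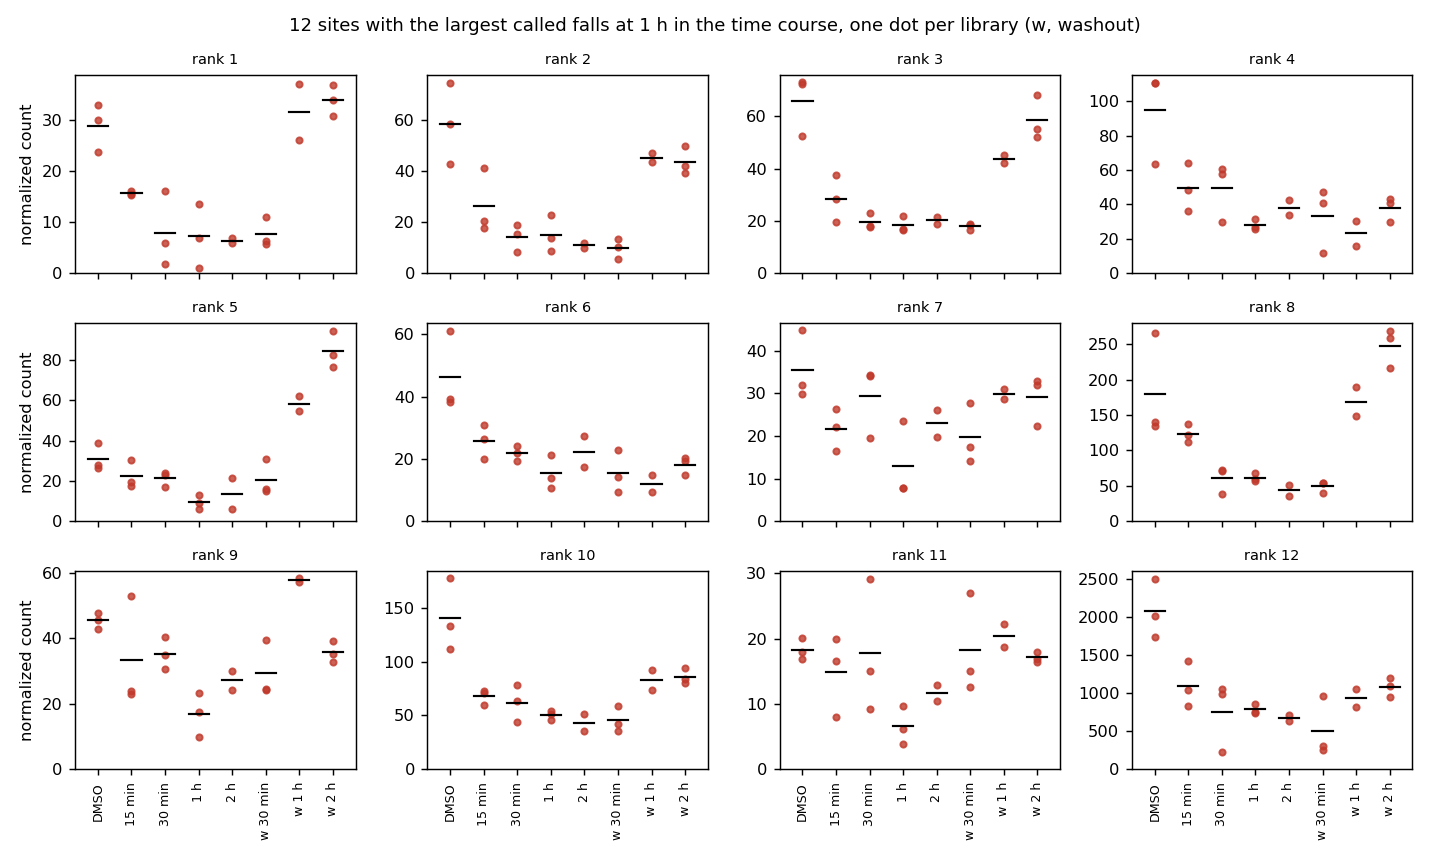
Normalized counts (y axes, from 0, each panel on its own scale) of the 12 members with the largest called falls at 1 h, 1 dot per time-course library, by group along the x axis (w, washout after 2 h of degrader). The dots drop between DMSO and 1 h in every panel. At 6 of the sites, such as rank 8 (chr1:21413821-21415010), the 2 h washout libraries are called above the 2 h degrader libraries, against 5.64% of all sites.

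Washing the degrader out lets new Mtg16 accumulate, and the comparison asks whether signal returned. Over the members, calls went both ways. After 1 h of washout, 59 members were lower and 51 higher than after 2 h of degrader (median -0.13), against 2.9% lower and 2.45% higher over all sites. After 2 h, 66 were lower (5.65%) and 121 higher (10.4%), against 6.13% and 5.64%. The share lower was thus no larger than over all sites. The median of 0.07 became -0.029 without degrader 2 h replicate 1 and 0.15 without its replicate 2. Set against DMSO, the median ratio of the members' group means was -0.18 at 2 h of degrader. It was -0.34 after 1 h and -0.15 after 2 h of washout. After 30 min, limma called 0 of 1168 members in either direction, against 0% lower and 0.00429% higher over all sites; edgeR called 0 too, and 99 lower and 63 higher members had an unadjusted p under 0.05. Without the 3 libraries that stand apart, the calls were 201 lower (17.2%) and 81 higher (6.93%) at 30 min, against 8.95% and 7.84% of all sites in the same fit. They were 209 (17.9%) and 121 (10.4%) at 1 h, against 9.61% and 9.66%, and 143 (12.2%) and 213 (18.2%) at 2 h, against 11.8% and 11.9%. Single libraries mattered at each time: without washout 30 min replicate 3, 77 were lower and 23 higher at 30 min. At 1 h, leaving out 1 of the 4 libraries gave 10 and 6 (without degrader 2 h replicate 1), 0 and 3 (without its replicate 2), 8 and 5 (without washout replicate 1) and 5 and 5 (without washout replicate 2). At 2 h it gave 18 lower and 34 higher without degrader replicate 1, 12 and 58 without degrader replicate 2, 34 and 72 without washout replicate 3, and 38 and 39 lower without washout replicates 1 and 2.

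Among the 12 sites with the largest falls, 5 were higher after 1 h and 6 after 2 h of washout, against 2.45% and 5.64% of all sites. The count was 1 at 1 h without any 1 of its 4 libraries and 3 at 2 h without degrader 2 h replicate 1. At chr1:21413821-21415010 the 2 h degrader libraries read 51.1 and 36.2, the 1 h washout libraries 148 and 189 and the 2 h washout libraries 258, 269 and 216. The last group was 2.49 higher than degrader 2 h (adjusted p = 1.21e-05) and reached the range of DMSO. At chr15:37071961-37072160 the counts went from 5.89 and 6.90 to 30.7, 36.7 and 33.8 (2.23, adjusted p = 0.0184). The site chr2:73630831-73631440 rose most, by 2.77 (adjusted p = 0.000145), and chr3:93606791-93607400 by 1.47 (adjusted p = 0.00124). At chr3:87316571-87317340 the 2 h washout libraries read 1203, 1091 and 945, above the 630 and 707 of degrader 2 h and below every DMSO library, and the difference of 0.69 did not pass the test (adjusted p = 0.37).

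Of the 137 members that fell at 1 h in the time course, 23 were called higher and 4 lower after 2 h of washout. Of the 1028 members not called at 1 h, 95 were higher and 62 lower. Over all sites, 5.64% were higher and 6.13% lower. Over all members, the largest rise after 2 h of washout was at chr17:12731441-12732080, from 10.5 and 13.8 to 126, 90.6 and 146 (3.20, SE 0.54, adjusted p = 0.000595). The largest further fall was at chr11:40646781-40647370, from 109 and 185 to 19.1, 27.3 and 39.3 (-2.33, SE 0.44, adjusted p = 0.0015).

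The 3 members that rose in the time course at 1 h moved against their own rule. At chr9:70746961-70747740 the time-course libraries read 5.60, 5.48 and 5.96 in DMSO and 16.7, 10.5 and 22.7 at 1 h (1.34, SE 0.35, adjusted p = 0.00819), while the A485 series read 29.3, 34.5 and 24.5 in DMSO and 7.14, 21.8 and 10.4 at 1 h of degrader. The libraries did not overlap in either experiment, in opposite directions. The same held at chr5:75619791-75620470, with 9.34, 4.57 and 4.47 in DMSO against 14.8, 14.8 and 17.5 at 1 h in the time course (1.29, adjusted p = 0.025) and 32.0, 23.3 and 32.4 against 11.6, 8.72 and 12.8 in the A485 series. After 2 h of washout these sites stood at 78.4, 77.3 and 112, and at 67.8, 88.3 and 122. The third site, chr15:103165371-103166200, differed by 0.82 (adjusted p = 0.0106) with overlapping libraries.

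Among the 6 members with the highest DMSO mean, 2 were called lower in the time course at 1 h. The highest of all, chr3:96154661-96157250, read 29227, 31391 and 39152 in DMSO and 20039, 23194 and 25504 at 1 h (-0.53, SE 0.16, adjusted p = 0.0234), and chr5:142891771-142892510 differed by -0.50 (adjusted p = 0.0268). The other 4 did not pass the test: chr1:106642941-106645910 differed by -0.19 (adjusted p = 0.363), chr5:115697351-115699280 by -0.27 (0.185), chr11:86476111-86477790 by -0.07 (0.866) and chr2:166909061-166910630 by 0.02 (0.962).

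Members also came in groups, with 17 runs of 3 or more sites no more than 10 kb from the next. The largest run, of 6 members between 18983231 and 19001050 on chromosome 7, gave -0.14, -0.61, -0.88, -0.66, -0.73 and -0.51 in the time course at 1 h, with 3 of the sites called. A run of 4 between 96143091 and 96157250 on chromosome 3, which ends in the site with the highest DMSO mean, gave -0.69, -1.13, -0.75 and -0.53, with 2 called. A run of 5 on chromosome 12, between 59234871 and 59250650, gave -0.61, -0.29, 0.04, -0.27 and -0.39, with adjusted p-values from 0.139 to 0.951 by limma.

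A485 blocks the acetyltransferase activity of p300 and CBP, which supports transcription at enhancers and promoters. Since the DMSO libraries of the series chose the members, comparisons with them are a description. The members' summed signal was 8.14% ± 0.33 of all site signal in DMSO (SD, n = 3), and with the degrader it was 6.59% ± 0.17 at 15 min, 5.84% ± 0.16 at 30 min and 4.17% ± 0.18 at 1 h. With A485 it was 7.49% ± 0.29, 5.23% ± 0.05 (n = 2) and 5.29% ± 0.30. With both agents it was 7.52% ± 0.22, 6.002% ± 0.473 (n = 2) and 5.41% ± 0.13. The members' median log2 ratio to DMSO after A485 was -0.23, -0.56 and -0.55 at the 3 times, where the other eligible sites stayed at -0.003, -0.03 and -0.01.

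Comparisons between treated groups set no library of the rule against another and were tested. The rule's libraries did enter the same fit, in its estimate of the spread and its filter on low values. Between 15 min and 1 h of A485, 348 of 1164 members tested (29.9%) fell and 16 rose (median -0.34), against 12% lower and 10.2% higher over all sites. The 16 became 7 without A485 15 min replicate 6, 10 without A485 1 h replicate 1 and 28 without its replicate 3. Among eligible sites that are no members, 12.5% fell and 12.5% rose, with a median of 0.02. The falls were again called more often at high levels: 69.1% of the members with a DMSO mean of 500 or more and 19.3% of those between 20 and 50. Other sites were not split by level here either. At chr1:21413821-21415010 the counts were 36.4, 41.5 and 44.2 after 15 min of A485 and 10.3, 25.3 and 27.7 after 1 h (-1.03, adjusted p = 0.00424), where DMSO read 227, 213 and 244. At chr3:96154661-96157250 the difference was -0.88 (adjusted p = 2.65e-09). The largest called fall was at chr5:91910771-91911250, from 30.0, 47.5 and 29.8 to 0, 5.63 and 0 (-4.26, SE 0.47, adjusted p = 1.36e-08), where counts are low.

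Adding the degrader to A485 changed few members, as it changed few of all sites. Against A485 alone, 1 member was lower and 0 higher at 15 min (median 0.04), against 0.00938% lower and 0.633% higher over all sites; edgeR also called 1 lower and 0 higher, and by limma 23 lower and 32 higher members had an unadjusted p under 0.05. At 30 min, 9 (0.773%) were lower and 12 (1.03%) higher (median 0.14), against 0.469% and 0.948%. At 1 h, 16 (1.38%) were lower and 37 (3.18%) higher (median 0.04), against 2.02% and 3.98%. Single libraries moved these counts: at 30 min 2 and 3 were lower without A485 replicates 1 and 2, and 31 and 2 higher without replicates 1 and 2 of both agents. At 1 h, 10 were lower without A485 replicate 1 and 36 without its replicate 3, and 8 without replicate 1 or 2 of both agents. Without A485 replicate 2, 60 were higher, and without replicates 1, 2 and 3 of both agents 16, 16 and 21 were higher.

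The 1 member lower at 15 min was chr3:87316571-87317340, and it was lower at each time. It read 548, 597 and 510 after 15 min of A485 and 341, 366 and 347 with both agents (-0.65, SE 0.12, adjusted p = 0.000918). At 30 min the difference was -0.98 (adjusted p = 4.69e-05). At 1 h A485 gave 397, 387 and 451 and both agents 179, 206 and 148 (-1.22, adjusted p = 1.61e-09). The groups did not overlap at 15 min or 1 h. In the other direction, the largest called difference at 1 h was at chr19:21354581-21355410, which read 0, 1.41 and 0 with A485 and 7.34, 5.57 and 5.47 with both (2.40, adjusted p = 4.37e-06).

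With A485 added to the degrader, members were called lower less often than all sites, and higher at near the share of all sites. Against degrader alone, 136 (11.7%) were lower and 117 (10.05%) higher at 15 min (median 0.16), against 17.7% lower and 8.61% higher over all sites. At 30 min, 209 (18.0%) were lower and 186 (16.0%) higher (median 0.04), against 21.6% and 14.1%. Higher were 75 at 15 min without replicate 6 of both agents and 111 at 30 min without replicate 2 of both agents. The same comparison at 1 h uses a group of the rule and was not tested.

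**Figure D4:**
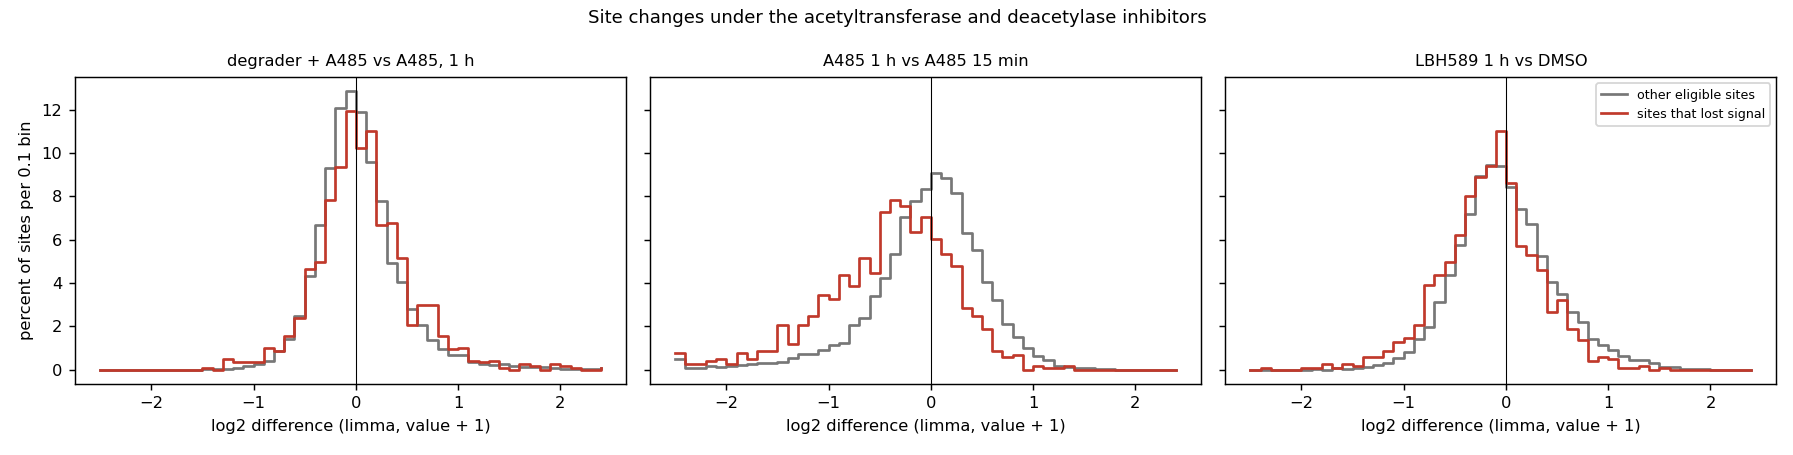
Distribution of limma log2 differences (x axis, log2(value + 1) scale) as percent of sites per bin of 0.1 (y axis), for the members outside the histone window and the eligible sites that are no members. The panels are degrader and A485 against A485 alone at 1 h, A485 at 1 h against 15 min, and LBH589 at 1 h against DMSO. The members' medians are 0.04, -0.34 and -0.14 in this order, and the members' curve has the longer left side in the panel of A485 at 1 h against 15 min.

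LBH589 keeps histones acetylated by blocking deacetylases, the enzymes Mtg16 recruits. In its series, whose DMSO libraries were not those of the rule, members fell more often than they rose at 1 h. After 30 min 161 of 1171 members fell and 105 rose (median -0.06), against 8.93% lower and 9.34% higher over all sites. After 1 h 340 (29.0%) fell and 121 rose (median -0.14), against 19% and 17.4%, while 23.5% of eligible sites that are no members fell and 18.8% rose. Higher were 68 at 30 min and 77 at 1 h without replicate 3 of the time in question. The site chr15:37071961-37072160 had the largest fall here too: it went from 125, 88.7 and 84.2 in DMSO to 32.6, 33.5 and 36.8 at 30 min and 20.1, 19.1 and 15.7 at 1 h (-2.36, SE 0.21, adjusted p = 4.27e-13). No treated library reached a DMSO library. At chr1:21413821-21415010 the counts went from 756, 667 and 855 to 292, 318 and 290 (-1.33, adjusted p = 2.37e-16), and at chr3:87316571-87317340 from 4051, 3773 and 4140 to 2079, 2033 and 2278 (-0.91, adjusted p = 3.66e-15). The largest rise was at chr17:41158601-41159120, from 25.1, 18.2 and 20.2 to 51.2, 57.3 and 78.7 (1.50, SE 0.22, adjusted p = 4.37e-07).

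Between 30 min and 1 h of washout in the LBH589 washout series, 60 of 1035 members tested were lower and 6 higher (median -0.23), against 2.7% lower and 2.83% higher over all sites. This count rested on single libraries: 9 were lower without 30 min replicate 1, 1 without replicate 2 or replicate 3, and 157 without 1 h replicate 3. The 6 higher became 11 without 1 h replicate 1, 28 without 1 h replicate 3 and 0 without any 1 of the 30 min libraries. At chr10:127494081-127495340, 1 of the 6 that were higher, the counts were 136, 172 and 144 at 30 min and 282, 430 and 548 at 1 h (1.43, SE 0.23, adjusted p = 0.00931), without overlap.

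The calls under the agents were set side by side by member. Lower in the time course at 1 h, under A485 between 15 min and 1 h, and under LBH589 at 1 h were 41 of the 1175 members (3.49%), against 0.27% of the 15191 eligible sites that are no members. Lower in at least 1 of the 3 were 578 members (49.2%, against 32.6%), and 597 in none. Of the members that fell in the time course, 48.5% also fell under A485 and 45.3% under LBH589, against 27.2% and 26.9% of the members that did not fall there. The same shares over eligible sites that are no members were 18.6% and 25.5%, against 12.3% and 23.5%. The members that fell in the time course had a higher median DMSO mean (92.9 against 48.3), and higher members were called more often in each comparison, so the part of level in these shares was not tested. Among the 12 sites with the largest falls, 7 of the 10 tested were lower under A485, against 12% of all sites, and 9 of 12 were lower and 2 higher under LBH589 at 1 h, against 19% and 17.4%. The 2 became 0 without DMSO replicate 9 or LBH589 1 h replicate 1 or 3, and 1 without DMSO replicate 7.

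The histone window of chromosome 13 held 34 sites, of which 23 were eligible and 14 were members. By the values of the rule these were strong and fell far, with a median DMSO mean of 330 and a median log2 ratio of -1.86. In 13 of the 14 the libraries of the rule did not overlap, which the choice by these libraries favours. The lowest ratio of the whole set was at chr13:23741061-23741380 (-3.65), which read 968, 893 and 831 in DMSO and 79.4, 55.0 and 77.7 after 1 h of degrader.

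In the time course the window's members fell again. At 1 h the median log2 difference was -0.90, 10 of 14 sites had all degrader libraries below all DMSO libraries, against 16.2% of all sites, and 4 were called lower, against 3.07%. Without the 3 libraries that stand apart 11 were called, against 8.29%. At 15 min 1 was lower (median -0.65), against 2.16%, or 8 without those libraries, against 8.92%. At 30 min 7 were lower (median -1.17), against 4%, or 6 without (median -0.50), against 4.87%. At 2 h 1 was lower (median -0.70), against 1.58%, or 10 without, against 4.74%; this median was -0.39 without degrader 2 h replicate 1. Other single libraries moved the 4 at 1 h to 2 (without DMSO replicate 2 or degrader replicate 1 or 3) or 1 (without DMSO replicate 3 or degrader replicate 2). The 7 at 30 min became 2 without DMSO replicate 3 or without degrader replicate 3, and the 1 at 15 min became 0 without degrader replicate 2 and 2 without its replicate 3. The clearest fall at 1 h was at chr13:23002101-23002560, from 241, 297 and 283 to 84.6, 97.7 and 115 (-1.46, adjusted p = 0.000393). The member with the highest DMSO mean in the A485 series, chr13:23715831-23717730, went from 4407, 5194 and 6030 to 2974, 3339 and 3317 (-0.69, adjusted p = 0.0405), also without overlap. The member with the highest DMSO mean in the time course, chr13:23720261-23722260, read 5283, 6066 and 7144 in DMSO and 3017, 3447 and 3722 at 1 h, without overlap, and the difference of -0.85 did not pass the test (adjusted p = 0.116). At chr13:21968761-21970220 the DMSO libraries read 1429, 1634 and 2267 and the 1 h libraries 772, 762 and 968, without overlap, yet the difference of -1.07 did not pass the test (adjusted p = 0.261). The 30 min libraries of this site show how 1 library widened the spread, at 1268, 1425 and 148, the last being a library that stands apart. The member chr13:23778101-23778800 differed by 0.16 at 1 h.

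During washout the window's median lay first below and then near degrader 2 h. After 30 min the median difference from degrader 2 h was -0.84; limma and edgeR called 0 of 14, with 5 lower and 0 higher at an unadjusted p under 0.05 by limma. Without the 3 libraries that stand apart 11 were lower, against 8.95% of all sites (median -1.41), and 9 without washout 30 min replicate 3 alone. After 1 h the median was -0.58 and 1 was lower, against 2.9%; it became 0 without any 1 of the 4 libraries, and 7 lower (against 9.61%) and 1 higher without the 3 that stand apart. After 2 h the median was 0.08, or -0.25 without degrader 2 h replicate 1. Limma called 0 of 14 and edgeR 1 (lower), with 1 lower and 1 higher at an unadjusted p under 0.05 by limma; without the 3 libraries that stand apart 3 were lower and 2 higher, against 11.8% and 11.9%. Set against DMSO, the median ratio of group means was -0.70 at 2 h of degrader and -0.89 after 2 h of washout, with 13 of 14 sites below 0 after washout. Single sites differed in how near they came to DMSO. At chr13:21968761-21970220 the counts were 300 and 426 after 1 h of washout and 518, 498 and 508 after 2 h, all below every DMSO library. At chr13:22012951-22015520 the DMSO libraries read 344, 424 and 538, those at 2 h of degrader 252 and 417 and those at 2 h of washout 534, 607 and 708. The last group was 0.92 above degrader 2 h without overlap and did not pass the test (adjusted p = 0.0598). The means after 2 h of washout and in DMSO were 4337 and 5210 at chr13:23715831-23717730 and 650 and 795 at chr13:23926131-23927460.

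Both inhibitors lowered the window's members as well. Between 15 min and 1 h of A485, 9 of 13 tested fell (median -0.95), against 12% of all sites, led by chr13:23741061-23741380, from 480, 561 and 326 to 95.8, 76.0 and 88.2 (-2.35, adjusted p = 1.24e-12). Adding the degrader to A485 for 1 h left 1 lower, chr13:23715831-23717730 (-0.29, adjusted p = 0.0409), and 1 higher, chr13:21924311-21925200 (0.76, adjusted p = 0.0324), against 2.02% and 3.98%. Neither was called by edgeR, nor by limma when any 1 of the 3 libraries of both agents was left out. At 15 min (median -0.05) and 30 min (median 0.55) limma and edgeR called 0 of 13; by limma 0 and 1 were lower and 0 and 7 higher at an unadjusted p under 0.05. The median at 30 min lay between 0.22 and 0.83 when single libraries were left out. LBH589 lowered 9 of 14 at 30 min (median -0.65), against 8.93% of all sites, and 12 of 14 at 1 h (median -0.49), against 19%. At chr13:23741061-23741380 the LBH589 series read 4569, 3710 and 5091 in DMSO, 2098, 1858 and 1593 at 30 min (adjusted p = 6.32e-17) and 2868, 2892 and 2910 at 1 h. The 1 h libraries lay between the other groups with no overlap.

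The strongest move of the window was in the LBH589 washout series, where 10 of 12 tested members were lower at 1 h than at 30 min (median -1.96), against 2.7% of all sites. The count was 6 without 30 min replicate 1 and 2 without its replicate 2 or 3, with the median between -2.17 and -1.82 whichever library was left out. At chr13:21968761-21970220 the counts went from 230, 411 and 482 to 50.7, 62.6 and 36.5 (-2.85, SE 0.28, adjusted p = 0.000842). The site with the clearest fall in the time course, chr13:23002101-23002560, went the other way at low counts. It read 7.11, 7.12 and 9.11 at 30 min and 18.9, 16.2 and 14.4 at 1 h, without overlap, and was not called. The window's members together held 0.178% ± 0.04 of all site signal at 30 min of washout and 0.0559% ± 0.0076 at 1 h (SD, n = 3). The same share was 0.421% ± 0.025 in DMSO of the A485 series, 0.409% ± 0.08 in DMSO of the time course and 0.665% ± 0.058 in DMSO of the LBH589 series. It stood at 0.224% ± 0.022 after 1 h of degrader in the time course and at 0.533% ± 0.045 after 1 h of LBH589.

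**Figure D5:**
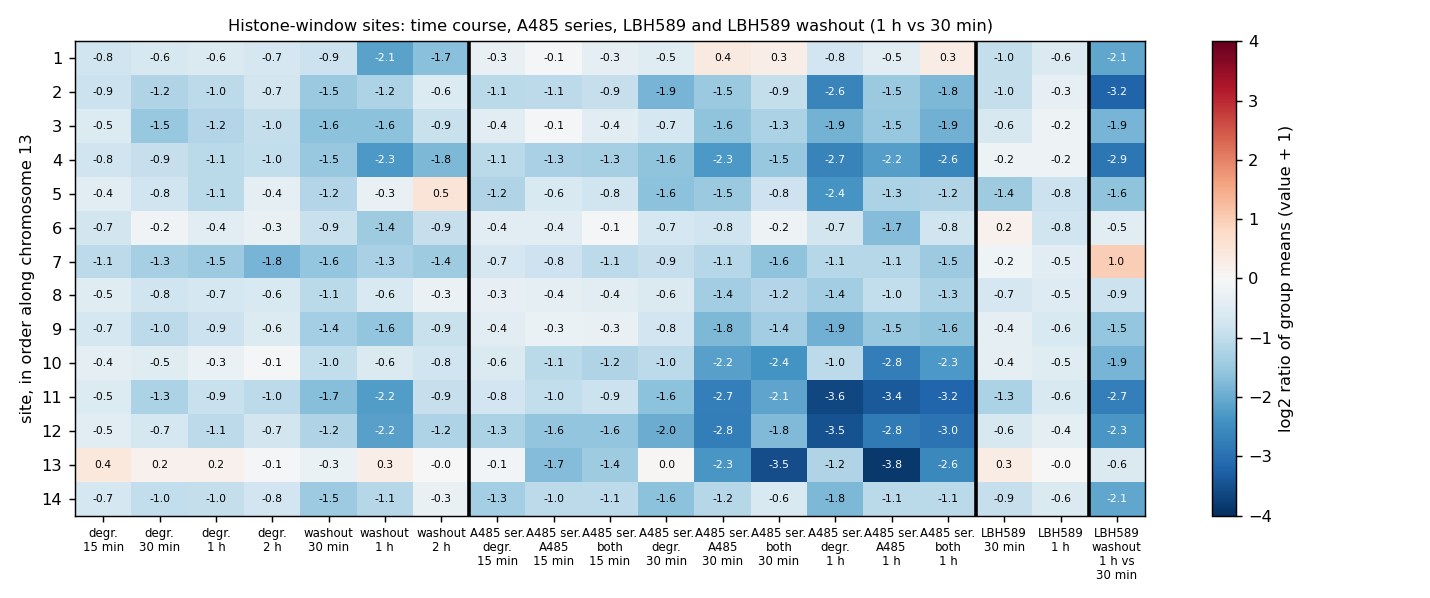
Log2 ratio of group means (value + 1; colour scale) for the 14 histone-window members (y axis, in order along chromosome 13) in every treated group (x axis) against DMSO of the same experiment, and for LBH589 washout 1 h against 30 min. Most cells are below 0, site 13 (chr13:23778101-23778800) stands out in the time course at 0.16 at 1 h, and site 11 (chr13:23741061-23741380) has the lowest value, -3.65, in the contrast of the rule.

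Gene-body transcription of 3 histone genes of chromosome 13, all coding for histone H2B, could be read in the gene tables. Near-identical histone copies can share reads, so their values are uncertain. At 1 h in the time course, 2.21% of all genes tested fell and 7.26% rose. H2bc22 read 398, 354 and 570 in DMSO and 261, 208 and 317 at 1 h (-0.74, adjusted p = 0.378). H2bc4 read 1978, 1960 and 2859, then 1435, 1309 and 1765 (-0.58, adjusted p = 0.496). For both, all degrader libraries were below all DMSO libraries. H2bc6 read 7028, 7965 and 8424, then 7303, 8069 and 7956, with full overlap (adjusted p = 0.997). In the A485 series, as a description, 1 h of degrader took H2bc22 from 325 ± 46.6 to 65.1 ± 31.4 (SD, n = 3), H2bc4 from 1437 ± 29.7 to 374 ± 78.6, and H2bc6 from 6592 ± 101.3 to 5017 ± 616.

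The promoters of the gene with the largest difference of the 3 and of the gene with the smallest are shown to give the sequence at which such transcription starts. They are the 250 bases before a RefSeq start in GRCm38.p6 and are not set against the mm39 sites. Capitals mark matches to 3 elements known from histone promoters, each sought on both strands, so that a reverse match reads as its reverse complement. The first is the box with the letters CCAAT. The second is the promoter motif written here as TATAAA. The third is the octamer known as ATTTGCAT in full.
H2bc22, chr13:21787238-21787487, plus strand: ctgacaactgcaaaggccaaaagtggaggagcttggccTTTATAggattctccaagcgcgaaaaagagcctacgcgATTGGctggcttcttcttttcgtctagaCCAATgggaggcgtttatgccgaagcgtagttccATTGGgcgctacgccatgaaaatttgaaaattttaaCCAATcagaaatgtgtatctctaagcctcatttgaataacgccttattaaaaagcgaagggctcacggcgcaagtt
H2bc6, chr13:23585971-23586220, minus strand: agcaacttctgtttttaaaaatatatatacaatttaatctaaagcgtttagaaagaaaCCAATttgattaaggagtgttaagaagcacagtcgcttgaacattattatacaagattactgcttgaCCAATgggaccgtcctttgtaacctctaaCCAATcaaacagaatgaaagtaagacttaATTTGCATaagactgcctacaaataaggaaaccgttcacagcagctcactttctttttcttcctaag
The H2bc22 window held 4 matches to the first and 1 reverse match to the second, and the H2bc6 window 3 matches to the first and 1 octamer. No matches overlapped. H2bc6 has another start in the table, and the one with the octamer is shown. Of all 32851 promoter windows of this length, 33.8% held the first, 12.4% the second and 1.6% the octamer on either strand.

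Beside the members, genes of the erythroid program, in which Mtg16 acts as a repressor, were read in the time course. Of 34 tested genes of a list of erythroid and heme genes, 28 rose at 1 h, against 7.26% of all genes, with a median of 0.94 against -0.01. Of 33 tested progenitor and myeloid genes, 9 rose and 3 fell (median 0.07), against 7.26% and 2.21%, or 14 and 11 without the libraries that stand apart, where 15.1% of all genes rose and 15.4% fell. The 3 became 1 without any single DMSO or degrader 1 h library other than DMSO replicate 1. Which members lie near these genes was not analysed here.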

How the data were processed

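PRO-seq libraries of MEL cells were measured at dREG sites and genes. Per the labels, the authors deposited a signal of reads divided by DESeq2 size factors. Tools in the submitters' processing notes are DESeq2 1.46.0, featureCounts 2.0.1, HOMER, bedtools, SAMtools 1.16.1 and Bowtie2 2.2.2, with mm39 and dm3 as builds; for their roles, filters and strand use, the sources used here say nothing. Dividing by a library's smallest step gave whole reads (tolerance 0.1), hence the depths. A change shared by most sites would not be visible after such scaling.

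Each table was fitted whole with limma 3.58.1 (lmFit, eBayes with a trend; R 4.3.3) on log2(value + 1), over sites with a mean of at least 10, with Benjamini-Hochberg adjustment over all sites and a threshold of 0.05. This scale understates the change of low sites. edgeR 4.0.16 on the recovered reads was an alternative, besides a pseudocount of 5, no filter, a rescaling by medians, a stricter rule of -1, each library left out, the replicate block and the time course without 3 libraries. The fit was tested on simulated data. Genes were represented by the transcript with the highest mean, and 8 per-sample gene columns of the time course were not used.

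The members and lists were chosen with earlier results of these data known. Named sites were the 12 largest non-overlapping falls called at 1 h in the time course, those called higher, the 6 highest, those at the limit, the extremes of each comparison and the histone window. Same-numbered libraries deviated together (every correlation above 0.1) only for degrader 15 min (0.26, 0.25 and 0.42) and 1 h (0.33, 0.40 and 0.23) with DMSO in the time course; the labels give no reason for a pairing.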

Additional observations from a re-analysis of the deposited data

Results flagged for a closer look

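A pair of members moved in opposite directions in both experiments with degrader for 1 h, with no overlap between groups in either: chr9:70746961-70747740 differed by 1.34 on the log2 scale in the time course and by -1.11 in the A485 series, and chr5:75619791-75620470 by 1.29 and -1.33. The difference between the experiments was not tested, and the A485-series values chose the members. Both sites were lower in DMSO of the time course than in DMSO of the A485 series, in tables that were normalized separately.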

How the results depend on the processing

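Without the 3 time-course libraries that stand apart, 299 members were lower and 20 higher than DMSO at 15 min, 308 and 8 at 1 h and 124 and 15 at 2 h; against degrader 2 h, 201 and 81 at 30 min, 209 and 121 at 1 h and 143 and 213 at 2 h of washout. With edgeR, 6 were higher at 15 min, 1 was lower and 2 higher for both agents against A485 at 30 min, 10 and 13 at 1 h, and 180 were higher for both against degrader at 15 min. A pseudocount of 5 left 4 lower for both against A485 at 30 min, no filter left 3 higher in the LBH589 washout, and the rule at -1 left 54 lower at 1 h, since it has fewer members. Otherwise the cause was not tested.

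Leaving out 1 library at a time gave, lower and higher, 34 to 108 and 3 to 12 at 15 min, 69 to 155 and 5 to 14 at 30 min, 55 to 122 and 1 to 2 at 1 h and 17 to 46 and 0 to 6 at 2 h. For washout it gave 0 to 77 and 0 to 23 at 30 min, 0 to 10 and 3 to 6 at 1 h and 12 to 39 and 34 to 88 at 2 h. For both agents against A485 it gave 1 to 1 and 0 to 1, 2 to 13 and 2 to 31, and 8 to 36 and 16 to 60 at the 3 times. For both against degrader it gave 107 to 116 and 75 to 90 at 15 min and 154 to 198 and 111 to 170 at 30 min, for A485 between 15 min and 1 h 266 to 353 and 7 to 28. LBH589 gave 119 to 157 and 68 to 106 at 30 min and 280 to 330 and 77 to 111 at 1 h, and its washout 1 to 157 and 0 to 28. With the replicate block, 146 members were lower and 3 higher at 1 h of degrader and 95 and 11 at 15 min, and no count of calls moved by over 1.5 times.

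The members' median at 1 h stayed between -0.40 and -0.27 in every alternative run. The members' median turned sign, when 1 library was left out, for washout against degrader 2 h at 30 min (-0.154 to 0.0336) and 2 h (-0.029 to 0.149), and for both agents against A485 at 15 min (-0.0205 to 0.0777) and against degrader at 30 min (-0.0206 to 0.13). Of named values the sign turned for H2bc6 at 1 h (0.0028 with edgeR, and -0.076 to 0.054 when single libraries were left out), chr13:23778101-23778800 under LBH589 at 1 h (0.0196 with edgeR, and -0.096 to 0.088 with libraries left out), chr13:22127561-22127920 in the LBH589 washout (-1.21 with all libraries, -1.96 to 0.0902 with 1 left out), chr13:23926131-23927460 under A485 (-0.186 to 0.10), chr11:86476111-86477790 (-0.209 to 0.085) and chr2:166909061-166910630 (-0.019 to 0.106) at 1 h. The other settings include the time course without the 3 libraries that stand apart. Under them, 617 values of named sites kept their direction and side of the threshold, 35 lost and 8 gained the call, and 1 turned sign. A comparison with genes hosting the sites was planned and not run, for want of an mm39 annotation here. Low counts limit what single members show: 580 members have a DMSO mean under 50.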
